A study of Mus musculus with 12 samples.

Results

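The unfolded protein response and the integrated stress response were followed through 34 listed genes in mouse liver, split by the transcription factor they are best known to answer to. The ATF4 branch held 15 genes, the ATF6 branch 12 and the XBP1 branch 7, with 1 branch per gene although ATF6 and XBP1 share targets. All 34 symbols were found among the 54838 gene identifiers of the deposited count table, and 32 of the 34 had enough counts to be among the 13861 genes tested. Phgdh, the first enzyme of serine synthesis, with 24 counts over all libraries, and Slc7a11, the cystine transporter, with 37, were too low to test.

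Liver mRNA came from C57BL/6J mice in 4 groups of 3 libraries each. Hypoxia_DEX mice spent 24 h at 7% O2 and received DEX, which is dexamethasone, a synthetic glucocorticoid that activates its nuclear receptor, at 10 mg/kg into the peritoneum. Hypoxia_PBS mice had the same oxygen and a PBS injection, Normoxia_DEX mice had 21% O2 and DEX, and Normoxia_PBS mice had 21% O2 and PBS. All were taken 2 h after injection and had free access to food and water. Hypoxia mice went back to 7% O2 after the injection. The design text calls the 3 libraries of a group biological replicates. Levels are CPM, a gene's counts divided by the scaled library size in units of 1e6 counts.

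The endoplasmic reticulum (ER) folds secreted proteins, which the liver makes in bulk. When unfolded proteins build up there, the sensor IRE1 splices the Xbp1 mRNA so that it encodes an active factor, ATF6 is cut and moves to the nucleus, and PERK phosphorylates the translation factor eIF2alpha. Phosphorylated eIF2alpha lowers most protein synthesis but favours translation of ATF4, and other kinases reach the same point from amino acid shortage, haem shortage or viral RNA, which gives the integrated stress response its name. ATF6 and XBP1 are known for inducing chaperones and the disposal of misfolded proteins, and ATF4 for amino acid synthesis, amino acid transport and, through CHOP (Ddit3), cell death. ATF4 and ATF6 are controlled after transcription, so that mRNA levels describe their targets and not their own activity. The reads were summed per gene, and splicing of Xbp1 was not measured.

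The promoters of several chaperone genes carry the ER stress response element (ERSE), the pair of half-sites CCAAT and CCACG with 9 bases between them, or ERSE-II, ATTGG and CCACG with 1 base between them. RefSeq promoter windows (GRCm38.p6, 250 bases before to 50 after a gene's start) were on hand for 32 of the 34 members, all but Hyou1 and Manf, and were searched on both strands. ERSE was found in 8 of 32 members (25%), against 37 of 27025 genes (0.137%), and ERSE-II in 2 of 32 (6.25%), against 12 of 27025 (0.0444%). Of the members with a window, 7 of 10 in the ATF6 branch, 3 of 7 in the XBP1 branch and 0 of 15 in the ATF4 branch had either element. These members are textbook targets through which the elements were described, so the share is a description of the list. The stretches below are 7 of the 10, with elements upstream of the start site. They are from genes with an adjusted p under 0.05 in a comparison described below. Those of Pdia6 and Syvn1 also lie upstream but are not printed, and neither gene reached that limit in any comparison. That of Dnajb11 reaches past its start site and is not printed. They are written 5′ to 3′ on the gene's strand, with the element in capitals. An element on the opposite strand reads CGTGG to ATTGG.

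Hspa5 (chr2:34772015-34772053, plus strand): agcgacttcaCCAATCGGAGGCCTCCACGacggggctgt
Hsp90b1 (chr10:86705523-86705666, minus strand, a pair of elements): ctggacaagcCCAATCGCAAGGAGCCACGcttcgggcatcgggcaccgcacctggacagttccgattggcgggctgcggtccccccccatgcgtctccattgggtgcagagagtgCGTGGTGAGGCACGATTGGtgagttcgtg
Calr (chr8:84847065-84847103, minus strand): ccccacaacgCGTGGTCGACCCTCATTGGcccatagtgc
Canx (chr11:50325790-50325828, minus strand): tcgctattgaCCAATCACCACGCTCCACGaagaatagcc
Creld2 (chr15:88819510-88819548, plus strand): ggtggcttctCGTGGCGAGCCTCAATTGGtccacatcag
Dnajc3 (chr14:118937817-118937855, plus strand): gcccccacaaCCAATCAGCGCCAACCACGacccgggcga
Herpud1 (chr8:94386367-94386397, plus strand, ERSE-II): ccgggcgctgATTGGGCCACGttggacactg

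The other members with an element were Pdia6 and Syvn1 (ERSE) and Dnajb11 (ERSE-II). The amino acid response element, which ATF4 binds, was searched as TGATG, any base and AA. It was present in 5 of 15 members of the ATF4 branch (33.3%), namely Asns, Chac1, Nupr1, Slc7a11 and Trib3, and in 1219 of 27025 genes (4.51%). The core of the XBP1 element UPRE, TGACG followed directly by TGG, was in 0 of 32 members and in 193 of 27025 genes (0.714%). Absence of these letters from a window says nothing about binding of the factor.

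Total counts ran from 12464687 to 24715995 per library. Between Hypoxia_DEX-1 and Hypoxia_DEX-3 the chi-square per gene was 1.79, and between other libraries of the same group it was 10.54 to 38.45. Beyond a limit that sampling noise alone exceeds in 5% of genes lay 9.16% of genes for this pair and 22.73% to 42.37% for the others. Whether the pair came from separate animals was not tested. It was counted as 2 libraries, as labelled, and the closing section names the genes whose result was lost when it was summed. On the second principal component, which separated DEX from PBS, Hypoxia_DEX-2 scored 9.22, against 21.52 and 21.39 in its group, and Hypoxia_PBS-1 scored -6.36, against -25.48 and -22.24. The sum of 5 DEX-responsive genes was 5240 to 5912 CPM in DEX libraries and 1232 to 2664 CPM in PBS libraries, and that of 5 hypoxia-responsive genes was 756.3 to 823.3 CPM in hypoxia and 413.8 to 535.6 CPM in normoxia. Hepatocyte markers summed to 139300 to 144900 CPM in Hypoxia_DEX, 127500 to 147600 CPM in Hypoxia_PBS, 147300 to 159500 CPM in Normoxia_DEX and 122600 to 132500 CPM in Normoxia_PBS. Of 9 tested, 3 were lower in hypoxia in DEX mice and 4 in PBS mice, and 3 were higher after DEX in hypoxia and 2 in normoxia. Kupffer cell markers, 10 of 10, were lower in hypoxia at either treatment, with sums of 172.5 to 210 CPM in hypoxia and 449.8 to 678.3 CPM in normoxia. Stellate cell markers were lower in hypoxia for 6 of 8 genes in DEX mice and 5 of 8 in PBS mice, with sums of 245.9 to 307.6 CPM in hypoxia and 282.8 to 394.9 CPM in normoxia. The part of these cells in the results was not tested. In bulk liver, fewer cells of a type and less RNA per cell cannot be told apart. Of 10 pancreatic acinar markers, from a cell type rich in ER, 7 to 9 were at 0 in each library, and 7 B and plasma cell markers summed to 1.835 to 6.473 CPM.

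Hypoxia was compared with normoxia in DEX mice and in PBS mice, which share no library. In DEX mice 15 of the 32 tested members rose and 4 fell, and in PBS mice 9 rose and 4 fell. Calreticulin (Calr), the BiP partner Dnajb11, the degradation scaffold Sel1l, the factor Atf5, BiP itself (Hspa5), Manf and the serine enzyme Psat1 rose at either treatment, between 1.29-fold and 2.68-fold, and calnexin (Canx) and the proline enzyme Aldh18a1 fell at either. A gene counts as called when its p from the quasi-likelihood test of edgeR, adjusted by the Benjamini-Hochberg method over all 13861 genes, was under 0.05. Hspa5, Manf, Psat1 and Canx each lost a call when 1 library was left out, as given below. Of all tested genes, 20.7% were called higher and 22.2% lower in DEX mice (42.9% either way), and 18.9% higher and 16.8% lower in PBS mice (35.7% either way). With all libraries the count of rises is above that share at either treatment, while the counts of falls are near or below it. With 1 library left out, the rises in PBS mice ran from 4 to 11, from below that share to above it. Those in DEX mice then ran from 9 to 16. The median log2 fold change of the members was 0.37 in DEX mice and 0.22 in PBS mice, against medians over all genes of -0.02 and 0.01. The count in DEX mice was 10 higher when the nearly matching Hypoxia_DEX pair was added up as 1 library, and 9 higher without Hypoxia_DEX-3 or without Normoxia_DEX-2. In PBS mice it was 5 without Hypoxia_PBS-2, and 4 without Hypoxia_PBS-3 or without Normoxia_PBS-3. Without both libraries that stood apart it was 16 in DEX mice and 13 in PBS mice.

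**Figure D1:**
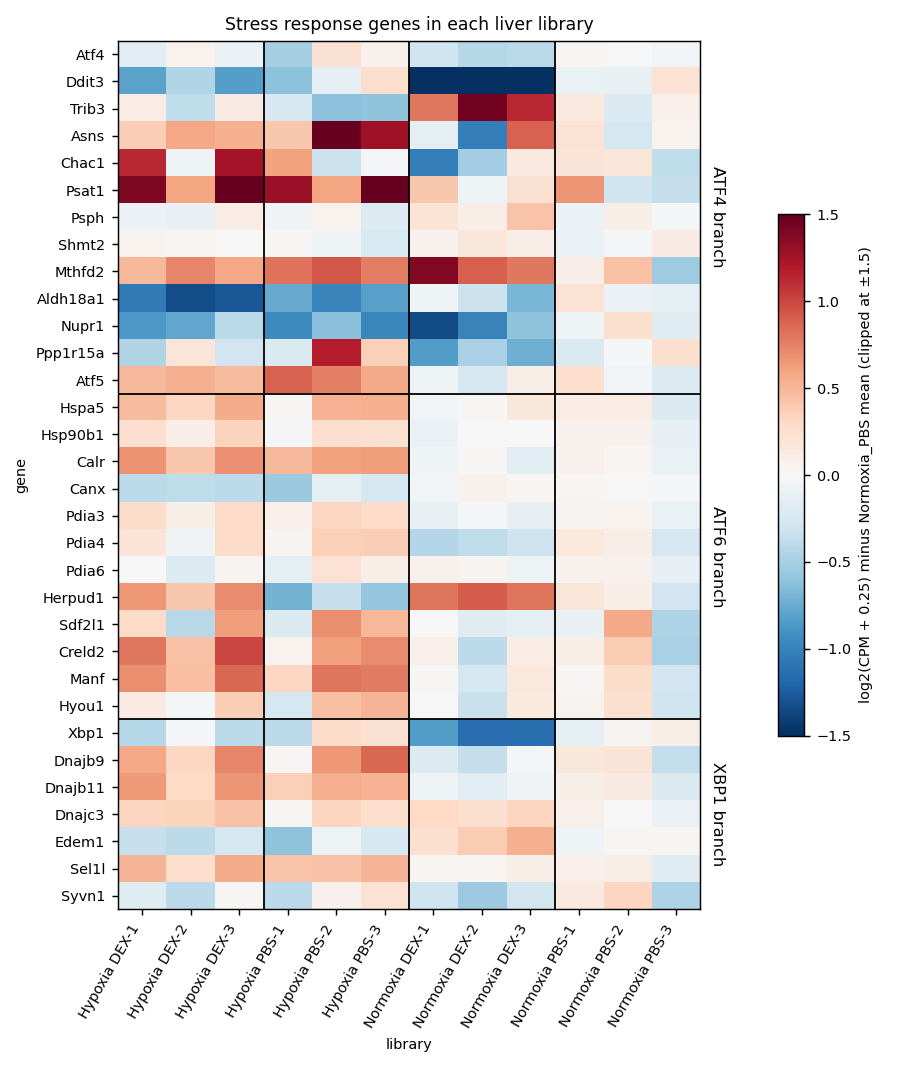
Each row is 1 of the 32 tested genes and each column 1 liver library, coloured by log2(CPM + 0.25) minus the Normoxia_PBS mean of that gene and clipped at 1.5 either way. Calr, Dnajb11, Sel1l and Atf5 are red in all 6 hypoxia libraries, Herpud1 is red in the 6 DEX libraries, and Ddit3 and Xbp1 are bluest in Normoxia_DEX.

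The ATF6 branch holds the abundant ER chaperones. In DEX mice 7 of its 12 genes rose in hypoxia and 1 fell, and in PBS mice 3 rose and 2 fell. The shares of all tested genes were 20.7% higher and 22.2% lower in DEX mice, and 18.9% and 16.8% in PBS mice. The 7 rises became 4 without Hypoxia_DEX-1, Hypoxia_DEX-3 or Normoxia_DEX-2 and with the nearly matching pair summed. In PBS mice the 3 rises became 1 without Hypoxia_PBS-2, Hypoxia_PBS-3 or Normoxia_PBS-3 and 5 without both libraries that stood apart, and the 2 falls became 1 without Normoxia_PBS-1. Its median log2 fold change was 0.34 in DEX mice and 0.25 in PBS mice. The summed level of the branch was 5138, 4496 and 5389 CPM in Hypoxia_DEX, against 4119, 4277 and 4317 CPM in Normoxia_DEX. In PBS mice the sum was 3905, 4987 and 4905 CPM in hypoxia and 4219, 4228 and 3539 CPM in normoxia. The groups did not overlap in DEX mice, while in PBS mice Hypoxia_PBS-1, the library that stood apart, lay below 2 of the 3 normoxia libraries.

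Calr encodes calreticulin, a lectin chaperone of the ER lumen that binds calcium (chromosome 8, 84841850 to 84846934). It had 865, 716 and 871 CPM in Hypoxia_DEX and 518, 552 and 483 CPM in Normoxia_DEX. With PBS it had 761, 827 and 836 CPM in hypoxia and 568, 556 and 507 CPM in normoxia. All 6 hypoxia libraries lay above all 6 normoxia libraries. The log2 fold change was 0.66 in DEX mice (SE 0.09, edgeR adjusted p = 0.000101) and 0.57 in PBS mice (SE 0.09, edgeR adjusted p = 0.000424), and both calls held under all 19 alternatives. Canx encodes calnexin, the membrane-bound counterpart of calreticulin that binds the same sugar chains, and it went the other way. It had 272, 273 and 270 CPM in Hypoxia_DEX, against 345, 371 and 364 CPM in Normoxia_DEX, and 242, 324 and 296 CPM in Hypoxia_PBS, against 363, 357 and 348 CPM in Normoxia_PBS. All 6 hypoxia libraries were below all 6 normoxia libraries. Canx fell by 0.41 in log2 units in DEX mice (edgeR adjusted p = 0.0031) and by 0.31 in PBS mice (edgeR adjusted p = 0.0177). The call in PBS mice was lost without Normoxia_PBS-1 and in a fit of the PBS groups alone, and its adjusted p was 0.0646 at most over 19 alternatives.

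Hspa5 encodes BiP, the main HSP70 of the ER and the protein that holds the stress sensors inactive (chromosome 2, 34771970 to 34777547). Per kilobase of exon it was the most abundant member, at 247.9 CPM per kilobase over the 12 libraries, followed by Calr at 233.2, Herpud1 at 228.7 and Atf5 at 211.9. It had 1241, 1105 and 1310 CPM in Hypoxia_DEX and 863, 898 and 1001 CPM in Normoxia_DEX. In PBS mice it had 904, 1280 and 1290 CPM in hypoxia and 960, 960 and 766 CPM in normoxia. The groups were apart in DEX mice and overlapped in PBS mice through Hypoxia_PBS-1. The log2 fold change was 0.40 in DEX mice (SE 0.14, edgeR adjusted p = 0.0279) and 0.37 in PBS mice (SE 0.14, edgeR adjusted p = 0.0472). The call in PBS mice was lost on leaving out any 1 library other than Hypoxia_PBS-1, with adjusted p from 0.00277 to 0.167 over 19 alternatives. In DEX mice the call did not hold without Normoxia_DEX-1, Normoxia_DEX-2, Hypoxia_DEX-1 or Hypoxia_DEX-3, with adjusted p up to 0.0915.

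Hsp90b1 encodes GRP94, the HSP90 of the ER (chromosome 10, 86690209 to 86705509). It had 889, 801 and 948 CPM in Hypoxia_DEX, against 697, 751 and 753 CPM in Normoxia_DEX. With PBS it had 735, 893 and 880 CPM in hypoxia, against 785, 782 and 686 CPM in normoxia. The groups were apart in DEX mice only. It rose in DEX mice (log2 fold change 0.26, SE 0.10, edgeR adjusted p = 0.0427) and had a log2 fold change of 0.16 in PBS mice (edgeR adjusted p = 0.229). The call did not hold without any 1 of the Normoxia_DEX libraries, nor without Hypoxia_PBS-3, Normoxia_PBS-1, Normoxia_PBS-2, Hypoxia_DEX-1 or Hypoxia_DEX-3, with adjusted p up to 0.132. The gene shares 415 exon bases with the opposite-strand 1810014B01Rik, at 1.959 CPM.

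Manf and Creld2 encode small proteins of the ER that are partly secreted. Manf had 126, 106 and 142 CPM in Hypoxia_DEX and 78.7, 64.6 and 86.6 CPM in Normoxia_DEX. In PBS mice it had 96.2, 136 and 133 CPM in hypoxia and 78.6, 93.7 and 63.4 CPM in normoxia. Hypoxia and normoxia libraries were apart at either treatment, though by less than 3 CPM at their closest in PBS mice. The log2 fold change of Manf was 0.70 in DEX mice (edgeR adjusted p = 0.0079) and 0.63 in PBS mice (edgeR adjusted p = 0.017), the second lost without Normoxia_PBS-3, Hypoxia_PBS-2 or Hypoxia_PBS-3 (adjusted p up to 0.0674). Manf overlaps Dcaf1 on the opposite strand by 146 exon bases, and reads there cannot be told apart without a stated strand setting. Creld2 rose in DEX mice (log2 fold change 0.82, edgeR adjusted p = 0.0259), a call lost without Normoxia_DEX-2, Hypoxia_DEX-1 or Hypoxia_DEX-3 (adjusted p up to 0.089), and had 0.44 in PBS mice (edgeR adjusted p = 0.21). The protein disulfide isomerases, which form and reshuffle disulfide bonds, differed among themselves. Pdia4 rose in DEX mice (log2 fold change 0.53, edgeR adjusted p = 0.00374), as did Pdia3 (0.31, edgeR adjusted p = 0.0117). In PBS mice Pdia4 had 0.252 (edgeR adjusted p = 0.126) and Pdia3 had 0.225 (edgeR adjusted p = 0.0574). Pdia3 was called higher in PBS mice by DESeq2 and without Hypoxia_PBS-1. Pdia6 had -0.06 in DEX mice (edgeR adjusted p = 0.654) and 0.07 in PBS mice (edgeR adjusted p = 0.637). Hyou1 and Sdf2l1, partners of BiP, had values between 0.22 and 0.36 in both comparisons and were not called in either.

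**Figure D2:**
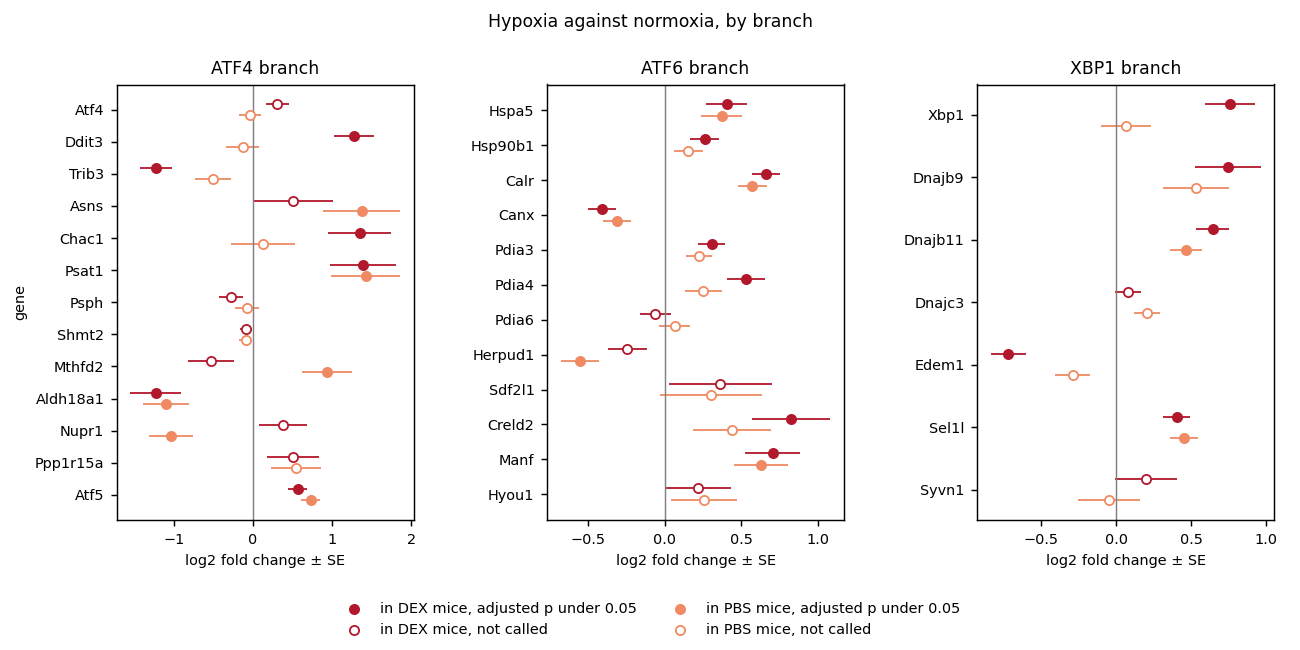
The x axis is the log2 fold change of hypoxia against normoxia with its SE, per gene, for DEX mice (dark red) and PBS mice (orange), in 1 panel per branch. Filled points have an edgeR adjusted p under 0.05 over all tested genes. Calr, Manf, Dnajb11, Sel1l and Atf5 are filled and right of 0 at both treatments, while Ddit3, Chac1, Xbp1 and Edem1 are filled only in DEX mice.

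Herpud1 encodes an ER membrane protein that organises the disposal complex (chromosome 8, 94386438 to 94395377), and it was the member with the clearest response to DEX. It had 672, 567 and 697 CPM in Hypoxia_DEX and 261, 336 and 286 CPM in Hypoxia_PBS. In normoxia it had 745, 800 and 745 CPM after DEX and 486, 457 and 351 CPM after PBS. Every DEX library lay above every PBS library. The mean was 645 ± 68.7 CPM in Hypoxia_DEX, 294 ± 37.7 CPM in Hypoxia_PBS, 763 ± 31.6 CPM in Normoxia_DEX and 431 ± 71.3 CPM in Normoxia_PBS (SD, n = 3 each). The log2 fold change of DEX against PBS was 1.13 in hypoxia (2.19-fold, SE 0.13, edgeR adjusted p = 8.81e-05) and 0.82 in normoxia (1.77-fold, SE 0.13, edgeR adjusted p = 0.000454), and the difference between these, 0.31, was not called (edgeR adjusted p = 0.525). In PBS mice Herpud1 fell by 0.55 in log2 units in hypoxia (edgeR adjusted p = 0.00449). In DEX mice the log2 fold change of hypoxia against normoxia was -0.24 (edgeR adjusted p = 0.138), although the groups did not overlap. The chaperones and isomerases of the branch had no call for DEX, apart from Pdia4, which fell after DEX in normoxia (log2 fold change -0.39, edgeR adjusted p = 0.0433). The Pdia4 call was lost without Hypoxia_DEX-1, Hypoxia_PBS-3, Normoxia_PBS-1, Normoxia_PBS-2 or any Normoxia_DEX library (adjusted p up to 0.158).

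The XBP1 branch covers Xbp1 itself, J-domain partners of BiP and the disposal of misfolded proteins by ER-associated degradation (ERAD). In hypoxia 4 of its 7 genes rose and 1 fell in DEX mice, and 2 rose in PBS mice, where 5 of the 7, Edem1 with a negative value among them, had an unadjusted p under 0.05, as had 45.2% of all genes. Called among all tested genes were 20.7% higher and 22.2% lower in DEX mice, and 18.9% higher and 16.8% lower in PBS mice. Without Hypoxia_PBS-1 the 2 rises in PBS mice became 4, and without Hypoxia_PBS-2 there was 1 fall. Dnajb11, a J-domain co-chaperone of BiP, had 113, 89.1 and 115 CPM in Hypoxia_DEX and 68.5, 65 and 69.8 CPM in Normoxia_DEX. With PBS it had 93.1, 105 and 104 CPM in hypoxia and 76.7, 79.3 and 62.4 CPM in normoxia. All hypoxia libraries were above all normoxia libraries. Its log2 fold change was 0.64 in DEX mice (SE 0.11, edgeR adjusted p = 0.000398) and 0.47 in PBS mice (SE 0.11, edgeR adjusted p = 0.0047). Sel1l, the scaffold of the HRD1 ubiquitin ligase complex, had 266, 224 and 274 CPM in Hypoxia_DEX and 190, 190 and 197 CPM in Normoxia_DEX. In PBS mice it had 251, 252 and 265 CPM in hypoxia and 197, 199 and 164 CPM in normoxia, again without overlap. Sel1l rose by a log2 fold change of 0.40 in DEX mice (edgeR adjusted p = 0.00322) and 0.45 in PBS mice (edgeR adjusted p = 0.00199). The calls for Dnajb11 and Sel1l held under all 19 alternatives in each comparison. Syvn1, which encodes the ligase HRD1 itself, had 0.20 in DEX mice (edgeR adjusted p = 0.474) and -0.05 in PBS mice (edgeR adjusted p = 0.872).

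Xbp1 (chromosome 11, 5520659 to 5525893) was at its lowest in Normoxia_DEX. It had 382, 500 and 392 CPM in Hypoxia_DEX, 391, 619 and 600 CPM in Hypoxia_PBS, 287, 233 and 234 CPM in Normoxia_DEX and 469, 525 and 546 CPM in Normoxia_PBS. The 3 Normoxia_DEX libraries lay below the other 9, and Hypoxia_PBS-1 lay among the Hypoxia_DEX libraries. After DEX in normoxia Xbp1 fell to 0.489-fold of its PBS level (log2 fold change -1.03, SE 0.17, edgeR adjusted p = 0.000978). In hypoxia the value was -0.34 (edgeR adjusted p = 0.215). It was called lower without Hypoxia_PBS-1 alone and without both libraries that stood apart, and over 19 alternatives it ran from -0.63 to -0.21 (adjusted p from 0.00196 to 0.531). The difference between the DEX responses, 0.69, was not called (edgeR adjusted p = 0.218). Hypoxia against normoxia gave a log2 fold change of 0.76 in DEX mice (edgeR adjusted p = 0.00317) and 0.06 in PBS mice (edgeR adjusted p = 0.795).

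Edem1, a lectin that hands glycoproteins to ERAD, had 198, 192 and 210 CPM in Hypoxia_DEX and 297, 329 and 364 CPM in Normoxia_DEX, which did not overlap. With PBS it had 166, 240 and 214 CPM in hypoxia and 241, 257 and 258 CPM in normoxia. It fell in hypoxia in DEX mice by 0.72 in log2 units (edgeR adjusted p = 0.000295) and had -0.29 in PBS mice (edgeR adjusted p = 0.067). DEX in normoxia gave a rise of 0.39 (edgeR adjusted p = 0.0345), a call lost without Hypoxia_DEX-1, Normoxia_DEX-2, Normoxia_DEX-3 or any Normoxia_PBS library (adjusted p up to 0.145). Dnajc3, the inhibitor of eIF2alpha kinases also called p58IPK (chromosome 14, 118937976 to 118981697), had 306, 292 and 311 CPM in Normoxia_DEX and 262, 250 and 234 CPM in Normoxia_PBS. Its hypoxia libraries held 311, 313 and 336 CPM after DEX and 251, 310 and 299 CPM after PBS. The normoxia groups were apart, and Dnajc3 rose after DEX there (log2 fold change 0.29, edgeR adjusted p = 0.0331). That call did not hold without any 1 of the Normoxia_DEX libraries, nor without Normoxia_PBS-3, Normoxia_PBS-2 or Hypoxia_DEX-1 (adjusted p up to 0.108). Dnajb9, another J-domain partner of BiP, rose in hypoxia in DEX mice (log2 fold change 0.74, edgeR adjusted p = 0.0193), a call lost without Hypoxia_DEX-3, Normoxia_DEX-1 or Normoxia_DEX-2 (adjusted p up to 0.0683). In PBS mice Dnajb9 had 0.53 (edgeR adjusted p = 0.0815), called higher by DESeq2 and without Hypoxia_PBS-1.

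**Figure D3:**
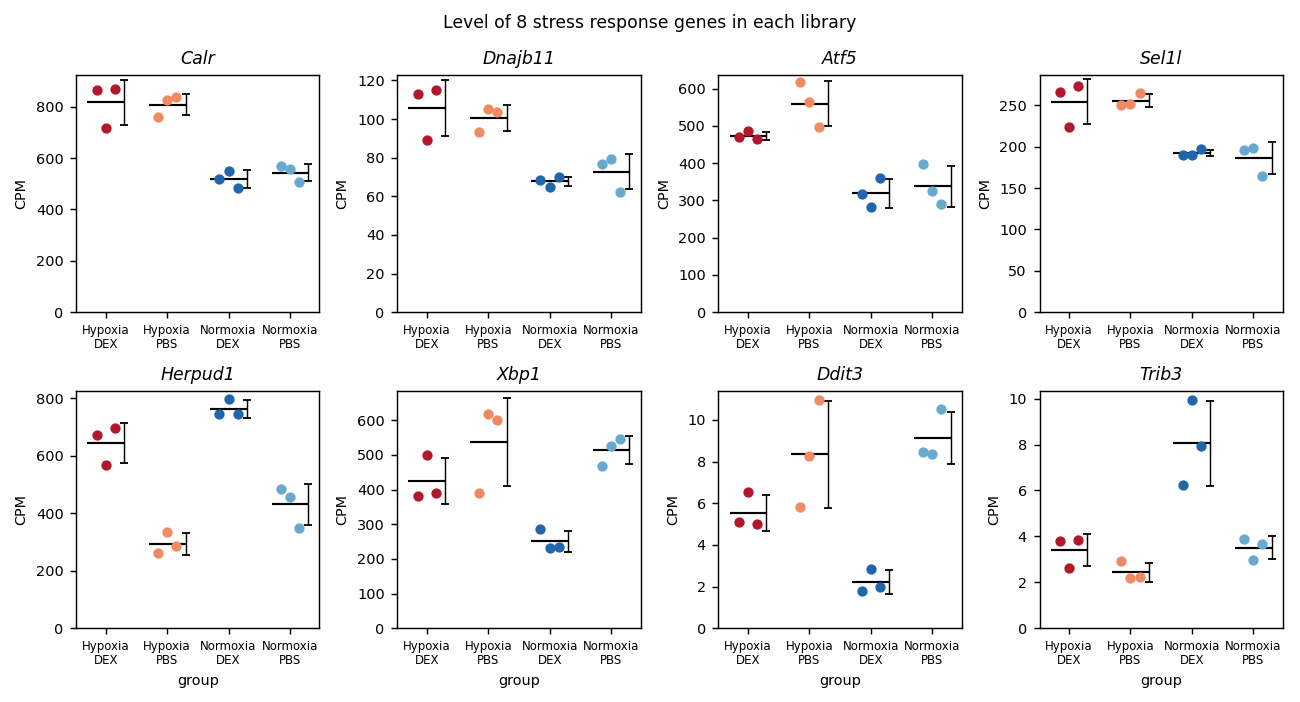
The y axis is CPM in each library for 8 members, points are libraries, the line is the mean and the bar the SD of 3 libraries per group. The 6 hypoxia libraries are above the 6 normoxia libraries for Calr, Dnajb11, Atf5 and Sel1l, DEX libraries are above PBS libraries for Herpud1, and Normoxia_DEX is lowest for Xbp1 and Ddit3 and highest for Trib3.

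Of the 13 tested genes of the ATF4 branch, 4 rose and 2 fell in hypoxia in DEX mice, and 4 rose and 2 fell in PBS mice. Among all tested genes 20.7% rose and 22.2% fell in DEX mice, and 18.9% rose and 16.8% fell in PBS mice. Psat1, Atf5 and the fall of Aldh18a1 were in both, Ddit3, Chac1 and Trib3 were called in DEX mice, and Asns, Mthfd2 and Nupr1 in PBS mice. Without Hypoxia_DEX-1, Hypoxia_DEX-3 or Normoxia_DEX-2 the rises in DEX mice were 2. In PBS mice they were 1 without Hypoxia_PBS-3 or Normoxia_PBS-3 and 2 without Hypoxia_PBS-2, Normoxia_PBS-1 or Normoxia_PBS-2, the last of which also left 1 fall. The median log2 fold change was 0.38 in DEX mice and -0.04 in PBS mice. Atf4 itself had 96, 112 and 101 CPM in Hypoxia_DEX, 76.2, 126 and 113 CPM in Hypoxia_PBS, 87.8, 80 and 81.8 CPM in Normoxia_DEX and 110, 108 and 105 CPM in Normoxia_PBS. None of the 5 tests called Atf4. Its log2 fold change was 0.31 for hypoxia in DEX mice (edgeR adjusted p = 0.0923) and -0.38 for DEX in normoxia (edgeR adjusted p = 0.0912). Each of these was called without Hypoxia_PBS-1, without Hypoxia_PBS-2, with both libraries that stood apart left out, and in a fit of the 2 groups alone, with adjusted p between 0.00106 and 0.198.

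Among the transcription factors downstream, Atf5, a liver-rich relative of ATF4 (chromosome 7, 44812256 to 44816658), was the most abundant. It had 469, 486 and 464 CPM in Hypoxia_DEX and 317, 281 and 359 CPM in Normoxia_DEX. In PBS mice it had 618, 565 and 496 CPM in hypoxia and 397, 326 and 290 CPM in normoxia. Hypoxia libraries were above normoxia libraries throughout. Atf5 rose by a log2 fold change of 0.57 in DEX mice (SE 0.12, edgeR adjusted p = 0.00213) and 0.73 in PBS mice (SE 0.12, edgeR adjusted p = 0.000536), under all 19 alternatives in each comparison. It shares 82 exon bases with Nup62 on the opposite strand, at 11.231 CPM.

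Ddit3 encodes CHOP, the factor tied to cell death under ER stress (chromosome 10, 127290774 to 127296288). Like Xbp1 it was lowest in Normoxia_DEX. It had 5.09, 6.55 and 4.99 CPM in Hypoxia_DEX, 5.84, 8.25 and 10.9 CPM in Hypoxia_PBS, 1.81, 2.86 and 1.99 CPM in Normoxia_DEX and 8.46, 8.36 and 10.6 CPM in Normoxia_PBS. The Normoxia_DEX libraries were below all 9 others, and the means were 5.54 ± 0.876 CPM in Hypoxia_DEX, 8.35 ± 2.55 CPM in Hypoxia_PBS, 2.22 ± 0.560 CPM in Normoxia_DEX and 9.12 ± 1.24 CPM in Normoxia_PBS (SD, n = 3 each). After DEX in normoxia Ddit3 fell to 0.249-fold of its PBS level (log2 fold change -2.01, SE 0.24, edgeR adjusted p = 5.24e-05). In hypoxia the value was -0.60 (SE 0.22, edgeR adjusted p = 0.0991), which was called lower without Hypoxia_PBS-1 and with both libraries that stood apart left out (lowest adjusted p 0.00849). Hypoxia against normoxia was 1.28 in DEX mice (SE 0.25, edgeR adjusted p = 0.00109) and -0.13 in PBS mice (edgeR adjusted p = 0.667). The difference between the DEX responses was 1.41 (SE 0.33, edgeR adjusted p = 0.056), which passed under 7 of 18 alternatives, among them leaving out Hypoxia_PBS-1, Hypoxia_PBS-3 or Normoxia_DEX-2, with adjusted p from 0.00441 to 0.124. The gene overlaps Mars on the opposite strand by 68 exon bases, and Mars averaged 53.7 CPM. Neutrophil markers (8 genes, 0 to 4 of them at 0 in a library) were also lowest in Normoxia_DEX, with sums of 12.65 to 35.21 CPM in Hypoxia_DEX, 16.19 to 74.84 CPM in Hypoxia_PBS, 5.181 to 10.88 CPM in Normoxia_DEX and 20.86 to 32.76 CPM in Normoxia_PBS. Their part in the Ddit3 and Xbp1 values was not tested.

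Nupr1 encodes a small chromatin-associated stress protein (chromosome 7, 126623249 to 126630861) and was near 1 CPM, with 10 to 43 counts per library. It had 0.888, 0.961 and 1.31 CPM in Hypoxia_DEX, 0.818, 1.09 and 0.806 CPM in Hypoxia_PBS, 0.567, 0.787 and 1.12 CPM in Normoxia_DEX and 1.74, 2.19 and 1.58 CPM in Normoxia_PBS. The Normoxia_PBS libraries were above all others. Nupr1 fell by 1.03 in log2 units in hypoxia in PBS mice (edgeR adjusted p = 0.0119) and by 1.17 after DEX in normoxia (edgeR adjusted p = 0.0092). Both calls were lost without Normoxia_PBS-2, with adjusted p up to 0.0582 and 0.0536.

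Trib3 encodes a pseudokinase that binds CHOP and AKT (chromosome 2, 152337422 to 152344032), and it was highest in Normoxia_DEX, where Ddit3 was lowest. It had 3.79, 2.62 and 3.83 CPM in Hypoxia_DEX, 2.92, 2.19 and 2.21 CPM in Hypoxia_PBS, 6.24, 9.95 and 7.96 CPM in Normoxia_DEX and 3.88, 2.96 and 3.69 CPM in Normoxia_PBS. The Normoxia_DEX libraries were above all 9 others. Trib3 rose 2.31-fold after DEX in normoxia (log2 fold change 1.21, SE 0.20, edgeR adjusted p = 0.000867) and had 0.50 after DEX in hypoxia (edgeR adjusted p = 0.189). It fell in hypoxia by 1.22 in log2 units in DEX mice (SE 0.20, edgeR adjusted p = 0.000383) and had -0.51 in PBS mice (edgeR adjusted p = 0.1). Ppp1r15a, the phosphatase subunit GADD34 that reverses eIF2alpha phosphorylation, had 15, 23.3 and 16.8 CPM in Hypoxia_DEX, 17.7, 46.8 and 26.4 CPM in Hypoxia_PBS, 11.4, 14.7 and 12.3 CPM in Normoxia_DEX and 17.7, 20.2 and 24.3 CPM in Normoxia_PBS. It was not called in any comparison. After DEX its log2 fold change was -0.73 in hypoxia (edgeR adjusted p = 0.18) and -0.69 in normoxia (edgeR adjusted p = 0.196), the first called lower without Hypoxia_PBS-1 and the second without Hypoxia_PBS-2. In PBS mice hypoxia gave 0.54 (edgeR adjusted p = 0.213), called higher without Hypoxia_PBS-1.

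The enzymes of amino acid and one-carbon metabolism were mostly at low level. Psat1, the second step of serine synthesis (chromosome 19, 15904678 to 15947337), had 5 to 37 counts per library. It had 1.72, 0.874 and 1.94 CPM in Hypoxia_DEX and 0.737, 0.456 and 0.622 CPM in Normoxia_DEX, without overlap. With PBS it had 1.58, 0.876 and 1.88 CPM in hypoxia and 0.927, 0.357 and 0.33 CPM in normoxia, where 1 normoxia library exceeded 1 hypoxia library. Psat1 rose 2.62-fold in DEX mice (log2 fold change 1.39, SE 0.42, edgeR adjusted p = 0.0164) and 2.68-fold in PBS mice (log2 fold change 1.42, SE 0.44, edgeR adjusted p = 0.0219). In DEX mice this call did not hold without Normoxia_DEX-2, Hypoxia_DEX-1 or Hypoxia_DEX-3, nor in PBS mice without Normoxia_PBS-3, Normoxia_PBS-2, Hypoxia_PBS-1 or Hypoxia_PBS-3 (adjusted p up to 0.0784 and 0.0941). Psph, the last step of serine synthesis, had log2 fold changes between -0.28 and 0.25 in the 4 comparisons and was called in none. It shares 452 exon bases with Cct6a on the opposite strand, which is more abundant at 109.86 CPM. Shmt2, the mitochondrial enzyme that splits serine to glycine (chromosome 10, 127517123 to 127522444), was the second most abundant member of the branch. It had 154, 152 and 148 CPM in Hypoxia_DEX, 151, 142 and 126 CPM in Hypoxia_PBS, 156, 167 and 159 CPM in Normoxia_DEX and 139, 145 and 162 CPM in Normoxia_PBS, and no test called it.

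Asns, asparagine synthetase (chromosome 6, 7675169 to 7693254), had 1.75, 4.89 and 3.42 CPM in Hypoxia_PBS and 1.51, 1.02 and 1.32 CPM in Normoxia_PBS, without overlap. After DEX it had 1.72, 2.01 and 1.94 CPM in hypoxia and 1.13, 0.497 and 2.55 CPM in normoxia. It rose in PBS mice (log2 fold change 1.37, SE 0.48, edgeR adjusted p = 0.0437) and had 0.51 in DEX mice (edgeR adjusted p = 0.443). The call was kept on leaving out Hypoxia_PBS-1, Normoxia_DEX-2 or Normoxia_DEX-3 and lost on leaving out any of the other 9 libraries, with adjusted p from 0.0123 to 0.147. Mthfd2, the mitochondrial folate enzyme (chromosome 6, 83305691 to 83325908), was lowest in Normoxia_PBS. It had 1.06, 1.31 and 1.16 CPM in Hypoxia_DEX, 1.4, 1.53 and 1.34 CPM in Hypoxia_PBS, 2.21, 1.49 and 1.37 CPM in Normoxia_DEX and 0.753, 1.02 and 0.396 CPM in Normoxia_PBS. Mthfd2 rose in hypoxia in PBS mice (log2 fold change 0.94, edgeR adjusted p = 0.034) and after DEX in normoxia (1.18, edgeR adjusted p = 0.0151). The first call was lost without Normoxia_PBS-1, Normoxia_PBS-3 or any Hypoxia_PBS library and the second without Normoxia_DEX-1 or Normoxia_PBS-3 (adjusted p up to 0.104 and 0.072). The difference between its DEX responses, -1.46, was not called (edgeR adjusted p = 0.131).

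Aldh18a1, the first step of proline synthesis (chromosome 19, 40550257 to 40588463), was lower in hypoxia at either treatment. It had 0.473, 0.349 and 0.367 CPM in Hypoxia_DEX and 1.19, 0.953 and 0.684 CPM in Normoxia_DEX, and 0.643, 0.511 and 0.604 CPM in Hypoxia_PBS and 1.51, 1.17 and 1.12 CPM in Normoxia_PBS. The groups were apart in each pair, with 4 to 26 counts per library. It fell by 1.23 in log2 units in DEX mice (SE 0.32, edgeR adjusted p = 0.00725) and by 1.10 in PBS mice (SE 0.29, edgeR adjusted p = 0.0101), under all 19 alternatives in each. Chac1, which degrades glutathione (chromosome 2, 119351229 to 119354381), had 12.6, 5.33 and 13.7 CPM in Hypoxia_DEX and 2.61, 3.85 and 6.28 CPM in Normoxia_DEX. In PBS mice it had 8.71, 4.45 and 5.57 CPM in hypoxia and 6.49, 6.42 and 4.29 CPM in normoxia. Hypoxia_DEX-2 lay within the range of Normoxia_DEX, and the 2 Hypoxia_DEX libraries that nearly matched each other were the high ones. Chac1 rose in hypoxia in DEX mice (log2 fold change 1.35, SE 0.40, edgeR adjusted p = 0.0198) and had 0.13 in PBS mice (edgeR adjusted p = 0.833). The call was lost with that pair summed and without Hypoxia_DEX-3, Hypoxia_DEX-1, Normoxia_DEX-1 or Normoxia_DEX-2 (adjusted p up to 0.074).

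DEX was compared with PBS at each oxygen level. Herpud1 rose at either level, and in normoxia Ddit3 and Xbp1 fell to 0.249-fold and 0.489-fold while Trib3 rose 2.31-fold. In hypoxia 1 of 32 members rose, Herpud1, and 0 fell, with 3 members at an unadjusted p under 0.05, against 26.8% of all genes. In normoxia 5 rose and 4 fell. DESeq2 called 1 higher and 0 lower in hypoxia and 5 higher and 4 lower in normoxia. Over all genes 6.13% were called higher and 7.05% lower in hypoxia (13.2% either way), and 9.38% higher and 7.4% lower in normoxia (16.8% either way). With all libraries the members called were thus fewer than that share in hypoxia, at 1 of 32, and more in normoxia, at 9 of 32. Without Normoxia_PBS-2, which left 3 rises and 2 falls in normoxia, they were not above the 16.8% of the full fit. In hypoxia, leaving out both libraries that stood apart gave 3 rises and 3 falls, which was not below the 13.2% of the full fit. The 5 that rose in normoxia were Herpud1, Trib3, Mthfd2, Dnajc3 and Edem1, and the 4 that fell were Ddit3, Xbp1, Nupr1 and Pdia4. Leaving out Hypoxia_PBS-1 alone gave 3 falls in hypoxia, Ddit3, Xbp1 and Ppp1r15a, and leaving out Hypoxia_DEX-2 with it gave the same 3 falls and 3 rises, Herpud1, Trib3 and Chac1. In normoxia the 5 rises became 3 without Hypoxia_DEX-1, Normoxia_PBS-2 or any Normoxia_DEX library and with Hypoxia_DEX-1 and Hypoxia_DEX-3 summed, and 2 without Normoxia_PBS-3, while the 4 falls became 2 without Normoxia_PBS-2.

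**Figure D4:**
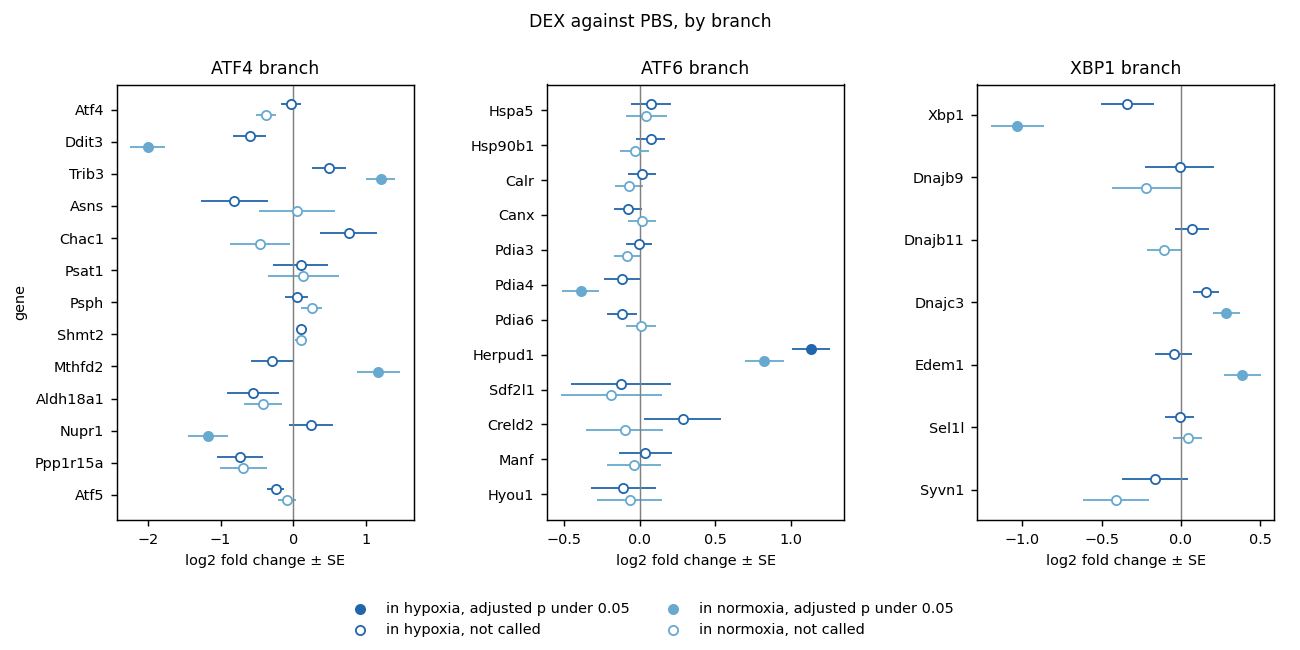
The x axis is the log2 fold change of DEX against PBS with its SE, per gene, in hypoxia (dark blue) and in normoxia (light blue), in 1 panel per branch, with filled points where the edgeR adjusted p is under 0.05. Herpud1 is the 1 gene filled in hypoxia, and the light blue points of Ddit3 at -2.01 and Trib3 at 1.21 mark the ends of the range in normoxia.

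Whether the DEX response of a member differed between hypoxia and normoxia was tested by the interaction term, which is also the test of whether its hypoxia response differed between DEX and PBS mice. By edgeR 0 of 32 members were called in either direction, with 6 at an unadjusted p under 0.05 (12.3% of all genes were under that limit), and DESeq2 called 1 higher, Ddit3. Of all genes 0.325% were called higher and 0.996% lower (1.32% either way). The 6 were Ddit3, Trib3, Mthfd2, Nupr1, Xbp1 and Edem1, and for Ddit3, Nupr1 and Xbp1 the interaction was positive. Member effects called at 1 oxygen level or 1 treatment and not at the other are therefore not shown to differ. The comparison of hypoxia in DEX mice and that of DEX in normoxia share the Normoxia_DEX libraries, so that a low Ddit3 or a high Trib3 there enters both.

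Other genes of the pathway were counted in 7 further lists. Of 20 sensors and regulators, 4 rose and 3 fell in hypoxia in DEX mice and 3 rose and 2 fell in PBS mice, which is close to or below the share of all genes. Ern1, which encodes the sensor IRE1alpha, had a mean of 47.95 CPM in Hypoxia_DEX and 105.4 CPM in Normoxia_DEX and fell by 1.14 in log2 units (edgeR adjusted p = 0.000161). In PBS mice Ern1 averaged 58.17 CPM in hypoxia and 65.12 CPM in normoxia and was not called (-0.164, edgeR adjusted p = 0.445). The difference between these hypoxia responses, -0.977, was not called either (edgeR adjusted p = 0.0609). DEX in normoxia raised Ern1 by 0.70 log2 units over its PBS mean of 65.12 CPM (edgeR adjusted p = 0.00892). That rise and the fall in DEX mice share the Normoxia_DEX libraries. Eif2ak4, the kinase GCN2 that senses uncharged tRNA, fell in hypoxia by 0.78 log2 units in DEX mice (edgeR adjusted p = 3.16e-05) and by 0.38 in PBS mice (edgeR adjusted p = 0.00899), and Eif2ak1, the haem-regulated kinase, fell by 0.25 in PBS mice (edgeR adjusted p = 0.00553). Creb3l3, the liver relative of ATF6 also called CREBH, rose by a log2 fold change of 1.07 in DEX mice (edgeR adjusted p = 0.00076) and 0.57 in PBS mice (edgeR adjusted p = 0.0319), and Eif2b3, a subunit of the eIF2B exchange factor, rose by 0.92 in DEX mice (edgeR adjusted p = 0.000213) and 1.11 in PBS mice (edgeR adjusted p = 0.000102) on the same scale. In hypoxia DEX raised Eif2s1, eIF2alpha itself, by 0.30 log2 units (edgeR adjusted p = 0.0208). After DEX in normoxia 3 of the 20 rose and 0 fell, against 9.38% and 7.4% of all genes. Besides Ern1 these were Eif2ak4 (log2 fold change 0.716, edgeR adjusted p = 0.000111) and Atf6 (0.455, edgeR adjusted p = 0.000767). Atf6 fell in hypoxia by 0.27 log2 units in DEX mice (edgeR adjusted p = 0.0105) and had 0.04 in PBS mice (edgeR adjusted p = 0.704).

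Of 20 tested other ATF4 targets, 3 rose and 4 fell in hypoxia in DEX mice, and 5 rose and 3 fell in PBS mice. Of all genes 20.7% rose and 22.2% fell in DEX mice, and 18.9% rose and 16.8% fell in PBS mice. Slc6a9, a glycine transporter, rose by a log2 fold change of 1.09 in DEX mice (edgeR adjusted p = 0.00122) and 1.25 in PBS mice (edgeR adjusted p = 0.000892). Xpot, the tRNA exporter, rose to 153.8 CPM in Hypoxia_DEX, against 76.9 CPM in Normoxia_DEX (edgeR adjusted p = 5.47e-06). Its means in PBS mice were alike, at 147 CPM in Hypoxia_PBS and 71.08 CPM in Normoxia_PBS. Mthfd1l, a mitochondrial folate enzyme, rose by 1.29 log2 units in PBS mice (edgeR adjusted p = 0.0115). It averaged 1.625 CPM in Hypoxia_DEX and 1.599 CPM in Normoxia_DEX. Cbs, which makes cystathionine from homocysteine, fell by 1.02 log2 units in DEX mice (edgeR adjusted p = 3.28e-06) and by 0.92 in PBS mice (edgeR adjusted p = 9.39e-06). Cth, the next enzyme, fell by 0.78 log2 units in PBS mice (edgeR adjusted p = 0.0479) and Vldlr, a lipoprotein receptor, by 1.21 in DEX mice (edgeR adjusted p = 0.00506). At the other treatment both means were also lower in hypoxia. Cth averaged 258.1 CPM in Hypoxia_DEX and 473.1 CPM in Normoxia_DEX, and Vldlr 9.83 CPM in Hypoxia_PBS and 14.87 CPM in Normoxia_PBS. DEX raised 5 of the 20 in hypoxia and 5 in normoxia, against 6.13% and 9.38% of all genes. Slc38a2, a neutral amino acid transporter, averaged 721.6 CPM in Hypoxia_DEX and 326.8 CPM in Hypoxia_PBS, and 667.9 CPM in Normoxia_DEX and 290.6 CPM in Normoxia_PBS. Slc38a2 rose after DEX in hypoxia, by 1.14 in log2 units (edgeR adjusted p = 0.00526), and in normoxia (edgeR adjusted p = 0.00265). Mthfd1l rose by 1.82 log2 units after DEX in normoxia (edgeR adjusted p = 0.00142) and Slc6a9 by 0.82 after DEX in hypoxia (edgeR adjusted p = 0.0194). Of 13 aminoacyl-tRNA synthetases, 2 rose and 3 fell in hypoxia in DEX mice, and 2 rose and 2 fell in PBS mice. These counts are close to or below the shares of all genes. Cars, the cysteine enzyme, fell by 1.09 log2 units in DEX mice (edgeR adjusted p = 0.00122) and by 0.92 in PBS mice (edgeR adjusted p = 0.00468), while Lars, the leucine enzyme, rose by 0.56 in DEX mice (edgeR adjusted p = 0.000132) and 0.48 in PBS mice (edgeR adjusted p = 0.000605).

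Genes of ER throughput were counted in 4 lists, against 20.7% of all genes called higher in hypoxia in DEX mice and 18.9% in PBS mice. In PBS mice 11 of 20 translocon and glycosylation genes, 7 of 9 tested genes of ER to Golgi transport, 5 of 16 other ERAD genes and 7 of 18 other folding genes rose. In DEX mice the counts were 6 of 20, 5 of 9, 6 of 16 and 4 of 18. Falls were 4 of 18 folding genes and 1 of 16 ERAD genes in DEX mice and 2 of 18 folding genes in PBS mice. Of all genes 22.2% were called lower in DEX mice and 16.8% in PBS mice, so these falls were not above that share. P4hb, protein disulfide isomerase and a subunit of collagen prolyl hydroxylase, averaged 1899 CPM in Hypoxia_DEX and 1138 CPM in Normoxia_DEX, and 2026 CPM in Hypoxia_PBS and 1113 CPM in Normoxia_PBS. It rose by a log2 fold change of 0.74 in DEX mice (edgeR adjusted p = 4.84e-06) and 0.87 in PBS mice (edgeR adjusted p = 2.27e-06). Lman1, a cargo receptor for glycoproteins, rose by 0.66 log2 units (edgeR adjusted p = 0.000612) and 0.61 (edgeR adjusted p = 0.00147), and Stt3b, a catalytic subunit of oligosaccharyltransferase, by 0.50 (edgeR adjusted p = 0.000301) and 0.55 (edgeR adjusted p = 0.000204), again in DEX and in PBS mice. Sil1, the nucleotide exchange factor of BiP, fell by 0.48 log2 units in DEX mice (edgeR adjusted p = 0.000251) and by 0.46 in PBS mice (edgeR adjusted p = 0.000489), and Mogs, which trims glucose from new sugar chains, by 0.35 in DEX mice (edgeR adjusted p = 0.00221) and by 0.27 in PBS mice (edgeR adjusted p = 0.0141).

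**Figure D5:**
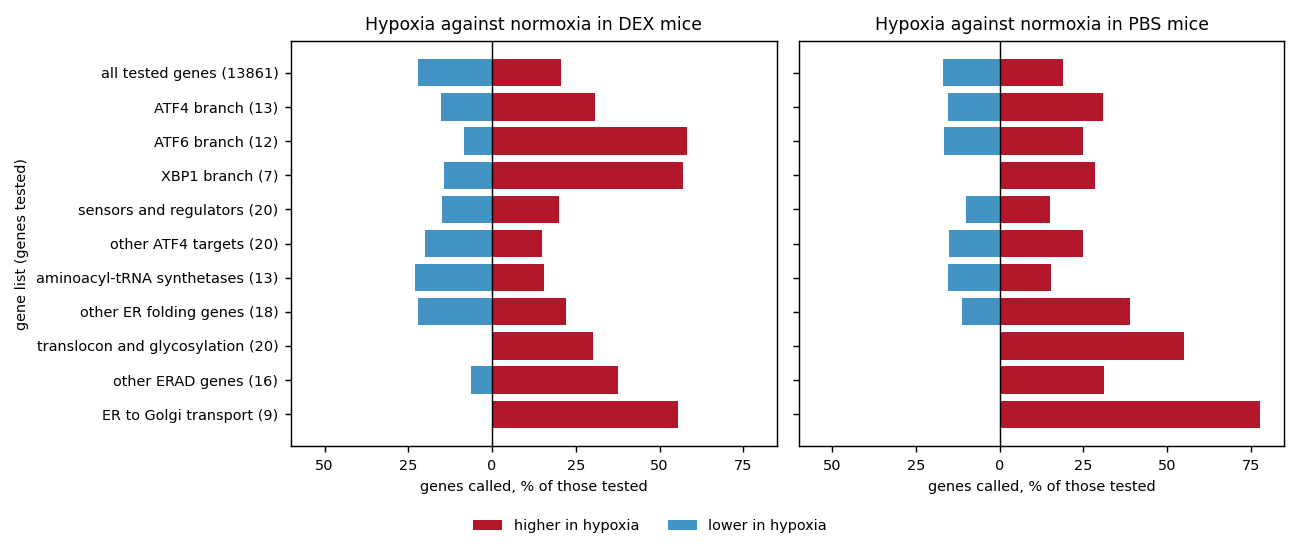
Bars give the percent of tested genes called higher (red, right) and lower (blue, left) in hypoxia, in DEX mice and in PBS mice, for all 13861 tested genes, the 3 branches and 7 further lists, with the number tested in brackets. The ATF6 and XBP1 branches have longer red bars in DEX mice, at 7 of 12 and 4 of 7 genes, and ER to Golgi transport has the longest in PBS mice, at 7 of 9.

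Ube2g2, the ubiquitin-conjugating enzyme that works with HRD1 and other ERAD ligases, was the 1 gene of these lists with a called interaction. It averaged 55.49 CPM in Hypoxia_DEX, 31.83 CPM in Hypoxia_PBS, 85.72 CPM in Normoxia_DEX and 26.94 CPM in Normoxia_PBS. DEX raised it by a log2 fold change of 0.80 in hypoxia (SE 0.09, edgeR adjusted p = 0.000115) and 1.67 in normoxia (SE 0.09, edgeR adjusted p = 1.04e-07). The difference between these was -0.87 (SE 0.13, edgeR adjusted p = 0.0056).

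Responses were counted by promoter element. In the ATF6 and XBP1 branches, 5 of 10 members with ERSE or ERSE-II rose and 1 fell in hypoxia in DEX mice, against 5 rises and 1 fall among 7 members with a window and no element. In PBS mice 3 of 10 with an element rose and 2 fell, against 1 rise among the 7 without. Calr and Canx, whose stretches are printed above, both carry ERSE and went opposite ways. Of the 39 other genes with an element in the window, 18 were tested, and in hypoxia 6 rose and 3 fell in DEX mice and 3 rose and 3 fell in PBS mice. The shares called among all genes were 20.7% higher and 22.2% lower in DEX mice, and 18.9% higher and 16.8% lower in PBS mice. No test of these counts was made.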

How the data were processed

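The authors deposited raw counts per gene, as whole numbers with no normalization, for 12 libraries. Per the submitters' processing notes the tools included HISAT2 2.0.4 and featureCounts with build mm10. No label or header names the annotation or strand setting, so overlapping genes may share reads. Per the labels' protocols, libraries came from a stranded mRNA kit. The protocol names both oxygen arms hypoxia, which was read as a slip, since titles name normoxia.

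Counts were fitted with edgeR 4.0.16 in R 4.3.3 (filterByExpr, TMM, glmQLFit with robust estimation, glmQLFTest, 1 mean per group, 8 residual degrees of freedom), with Benjamini-Hochberg adjustment over 13861 genes. An SE is the log2 fold change over the root of F. DESeq2 1.42.0 was an alternative, and the closing section names the others. The fit was tested on simulated data. Positions and exon lengths are from GENCODE M21 and promoters from RefSeq.

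Members, branches, lists, motifs and tests were chosen with earlier results of these data known. Values in every library are given for members with an absolute log2 fold change of at least 1 in a called comparison and the 2 most abundant per branch. Those for Atf4, Ppp1r15a, Calr, Canx, Manf, Dnajb11, Sel1l and Edem1 were added after values were seen. Other lists name up to 2 rises and 2 falls per comparison, of which some are printed. Atf6 was added to these after values were seen.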

Additional observations from a re-analysis of the deposited data

How the results depend on the processing

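Alternatives were no low-count filter, RLE size factors, a block for the replicate number, DESeq2, only the compared groups in the fit (not separate for the interaction), Hypoxia_DEX-1 and Hypoxia_DEX-3 summed, Hypoxia_DEX-2 and Hypoxia_PBS-1 both left out, and each library left out. Of 3003 member values under these, 109 lost the call and 46 gained one. The sign differed from the reported value in 146, of which 0 were called under either setting. Leaving out 1 library gave, for hypoxia against normoxia, 9 to 16 members higher and 4 lower in DEX mice, and 4 to 11 higher and 3 to 5 lower in PBS mice. For DEX against PBS it gave 1 higher and 0 to 3 lower in hypoxia, and 2 to 5 higher and 2 to 6 lower in normoxia, and for the interaction 0 to 1 in each direction. Without a low-count filter, 5 members were higher in hypoxia in PBS mice. The summed pair gave 3 higher after DEX in normoxia, where Edem1 and Dnajc3 lost their calls. For hypoxia against normoxia, summing the pair lost the calls of Hspa5, Hsp90b1, Creld2, Dnajb9 and Chac1 in DEX mice. In PBS mice it lost those of Hspa5 and Asns. Both libraries left out gave 3 higher and 3 lower after DEX in hypoxia, and 2 higher for the interaction. The interaction gave 1 higher without a filter, with the block and with DESeq2. The causes were not tested. Same-numbered libraries correlated at -0.151 to 0.39, so the numbers were not taken as pairs. With the replicate block, 13 members were higher in hypoxia in DEX mice and 7 in PBS mice, against 15 and 9. Members under 2 CPM (Asns partly, Psat1, Mthfd2, Aldh18a1, Nupr1) rest on 4 to 67 counts per library, and Phgdh and Slc7a11 could not be tested at this depth.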
